A study of Mus musculus with 12 samples.

Results

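The comparison of 4T1 with 4T07 primary tumours sets side by side the mammary carcinomas of a pair of mouse cell lines that share an origin and both reach the lung. It uses 6 of the 12 arrays of the series, 3 of 4T1 tumours and 3 of 4T07 tumours, chosen by the names of the lines in the labels. The other 6 arrays, 3 of 67NR and 3 of 168FARN tumours, entered the same fit, where they add to the estimate of the spread, and their means are quoted as a scale. All 4 groups are untreated tumours in female BALB/c mice of 3 months, grown from cells injected into a mammary fat pad. Per the labels, 15 mice received 4T07 cells, 13 received 4T1 cells, 11 received 168FARN cells and 8 received 67NR cells, and tumours were excised at an average size of 1 to 2 cm. The labels number the arrays 1 to 3 in each line but do not say that each came from its own animal, so the p-values speak only of how far these samples spread, and that spread may be technical.

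The 67NR, 168FARN, 4T07 and 4T1 lines were derived from a mammary tumour of a single mouse and are used together as a series of rising metastatic ability. Cells of 4T07 are known to leave the mammary gland and to arrive in the lung but seldom to grow into visible nodules, whereas 4T1 cells form nodules in lung and other organs. The contrast between them therefore bears on the last steps of metastasis, with the limit that each behaviour is represented by 1 line. A primary tumour in this model holds carcinoma cells together with fibroblasts, vessels and many myeloid cells of the host, and 4T1 tumours are known for the granulocytes that they raise. In such bulk RNA, fewer cells of a type and less RNA per cell cannot be told apart.

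Each array measured exon probesets, and the level of a gene is the median log2 signal over its probesets. There were 15025 genes with 3 probesets or more. A level under 5.08, the 95th percentile of 335 olfactory receptor genes, is within the background range, and a difference that starts or ends there may be understated. The median signal of the arrays was 7.21, 7.45 and 7.57 for 4T07 arrays 1, 2 and 3 and 7.34, 7.41 and 7.33 for those of 4T1. Gene levels correlated at 0.987 to 0.989 among the 4T1 arrays, at 0.981 to 0.982 among the 4T07 arrays and at 0.971 to 0.981 between the lines. The labelled tissue was carcinoma of the mammary gland, and the epithelial markers Krt18 and Epcam were high in both lines. A list of 48 genes of epithelial junctions and keratins averaged 7.27 in 4T07 and 7.55 in 4T1, near the median level of all genes (7.39). Krt18, a keratin of simple epithelia, stood at 11.67 ± 0.75 in 4T07 and 12.40 ± 0.24 in 4T1 (mean ± SD, n = 3 arrays, as at each such value), and Epcam, a surface marker of epithelial cells, at 9.82 ± 1.17 and 10.36 ± 0.28. 4T07 array 3 stood apart from the other 4T07 arrays in these genes, with Epcam at 11.11 against 9.52 and 8.83 on arrays 1 and 2.

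At an adjusted p under 0.05 in limma, with Benjamini-Hochberg adjustment over all genes tested, 357 genes (2.38% of those tested) differed between 4T1 and 4T07 tumours. Of these, 274 (1.82%) were lower and 83 (0.552%) higher in 4T1, and 190 (1.26%) and 39 (0.26%) differed at least 2-fold. In all 357 the 3 arrays of 1 line lay wholly above the 3 of the other, which held for 17.9% of all genes. Falls outnumbered rises, with 23.25% of the calls higher in 4T1. This split moved with the scaling: after quantile normalization 169 genes were higher and 312 lower (35.14% higher), and after centring the arrays on their medians 169 and 264 (39.03% higher). Of the genes lower by at least 2-fold, 109 had their highest mean of the 4 lines in 4T07 and 97 had their lowest in 4T1, and in 35 the 4T1 mean lay in the range of the background. Of the genes higher by at least 2-fold, 22 had their highest mean in 4T1 and 20 their lowest in 4T07. In genes chosen for a difference between 4T07 and 4T1, such orders are frequent by the choice alone. These counts therefore do not mark the differences as particular to 1 line.

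**Figure D1:**
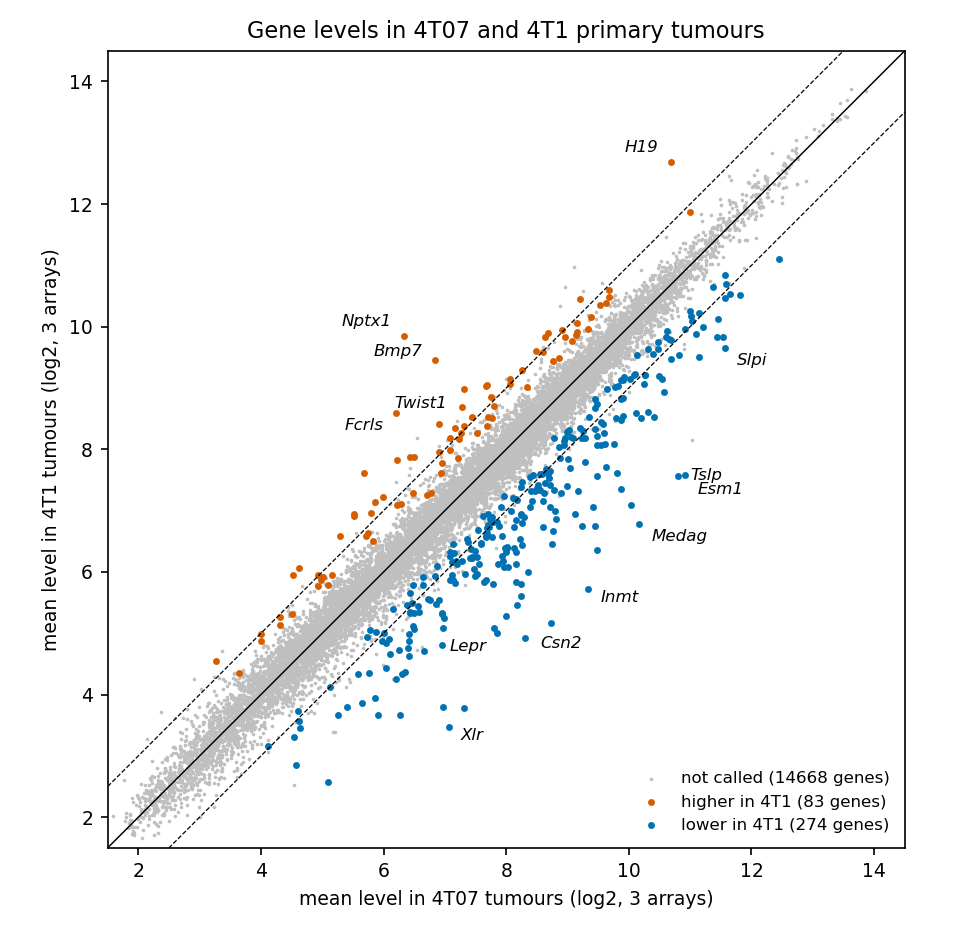
Mean gene level in 4T1 tumours (vertical, log2) against that in 4T07 tumours (horizontal, log2), each over 3 arrays, for 15025 genes. Orange points are the 83 genes called higher in 4T1 and blue points the 274 called lower, the solid line marks equal levels and the dashed lines a 2-fold difference; more points lie far below the line than far above it.

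The number of calls depended on single arrays. It was 158 without 4T07 array 2, 156 without 4T1 array 1, 233 without 4T1 array 2 and 224 without 4T1 array 3. The rises moved furthest: 266 genes were higher in 4T1 without 4T07 array 3, and 23 without 4T1 array 1. Without each of the 6 arrays in turn, 139 of the 357 genes were called every time, 20 of them higher and 119 lower. A call is described as steady below where it is among these 139. For the others, the arrays without which the call was lost, or their number, are given.

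The largest rise in 4T1 was that of Nptx1, which encodes neuronal pentraxin 1, a secreted protein known from synapses. Its level was 9.99, 9.92 and 9.62 on the 4T1 arrays and 6.24, 6.17 and 6.59 on those of 4T07, a rise of 11.4-fold (log2 3.51, SE 0.277, adjusted p = 4.18e-05). Nptx1 was low in 67NR (5.28 ± 0.49) and high in 168FARN (9.07 ± 0.54), so its level did not follow the order of the lines. Bmp7, a secreted ligand of the bone morphogenetic protein family, was measured at 9.71, 9.66 and 8.98 in 4T1 and at 6.84, 6.03 and 7.64 in 4T07. This was a rise of 6.11-fold (log2 2.61, SE 0.345, adjusted p = 0.00129), and 67NR (5.16 ± 0.22) and 168FARN (6.52 ± 0.41) lay below both means. Twist1, the transcription factor best known for driving epithelial-mesenchymal transition, stood at 8.73, 9.32 and 8.90 in 4T1 and at 6.90, 7.13 and 7.89 in 4T07, a rise of 3.20-fold (SE 0.246 on the log2 scale, adjusted p = 0.00257). Its means in 67NR (9.40) and 168FARN (10.39) were higher still, so 4T07 was the lowest of the 4 lines. The calls of Nptx1, Bmp7 and Twist1 were steady.

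Fcrls, an Fc receptor-like gene expressed by tissue macrophages and microglia, rose by 2.38 on the log2 scale, from 6.21 ± 0.73 to 8.59 ± 0.37. The proton channel gene Otop1 rose by 1.93 (5.69 ± 0.37 to 7.62 ± 0.13). Both calls were steady. H19, an imprinted noncoding RNA of embryonic growth, read 10.54, 9.87 and 11.61 in 4T07 and 12.79, 12.71 and 12.54 in 4T1, a rise of 4.01-fold (adjusted p = 0.0326). It was far lower in 67NR (6.42) and 168FARN (7.41), and its call was lost without any one of 4T07 arrays 1 (adjusted p = 0.0952) and 2 (0.161) and of 4T1 arrays 1 (0.126), 2 (0.101) and 3 (0.0832). Uox, the urate oxidase gene, rose by 1.62, the heparan sulfate proteoglycan gene Gpc4 by 1.52 and the adhesion receptor gene Nectin3 by 1.45. These 3 calls were lost without 4T07 array 2 (0.0661, 0.0595 and 0.0654), without 4T1 array 2 (0.0575, 0.0502 and 0.0767) and, for Uox and Nectin3, without 4T1 array 1 (0.069 and 0.0829), and that of Uox also without 4T07 array 1 (0.0565). The kinase gene Dclk2 (1.44), the olfactory pseudogene Olfr1372-ps1 (1.45) and Cyp24a1, which encodes the enzyme that inactivates vitamin D (1.40), were lost without 4T07 array 2 (0.107, 0.0709 and 0.134), among others. The other members of the 15 largest rises, Vsig4, Ccl24 and Pf4, are described with the macrophage genes below.

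The largest falls in 4T1 reached over 10-fold and came from genes of many kinds. Medag, a gene of adipocyte differentiation, read 10.12, 10.47 and 9.88 in 4T07 and 6.67, 6.67 and 6.99 in 4T1, a fall of 10.4-fold (log2 -3.38, SE 0.241, adjusted p = 4.18e-05). Esm1, which encodes the proteoglycan endocan of activated endothelium, read 11.01, 11.46 and 10.25 in 4T07 and 7.28, 8.32 and 7.13 in 4T1 (10.0-fold, SE 0.338, adjusted p = 0.000205). The other endothelial markers did not fall with it: of 30 measured, 1 was called lower, Esm1 itself, and 1 higher, against 1.82% and 0.552% of all genes. The median change of that list was 0.06, and its mean level was 7.565 ± 0.188 in 4T07 and 7.577 ± 0.218 in 4T1. Tslp, a cytokine that epithelial cells release and that acts on dendritic and T helper cells, read 10.85, 11.32 and 10.23 in 4T07 against 7.43, 7.64 and 7.62 in 4T1 (9.46-fold, SE 0.257, adjusted p = 4.18e-05). Its means in 67NR (2.99) and 168FARN (3.18) lay in the range of the background, so 4T1 held a level between. Lepr, the receptor of leptin, read 7.95, 8.16 and 7.47 in 4T07 and 4.91, 5.07 and 5.05 in 4T1, where it reached the range of the background (log2 -2.85, SE 0.223, adjusted p = 4.18e-05). The fall of Lepr may therefore be understated. All 4 of these calls were steady.

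**Figure D2:**
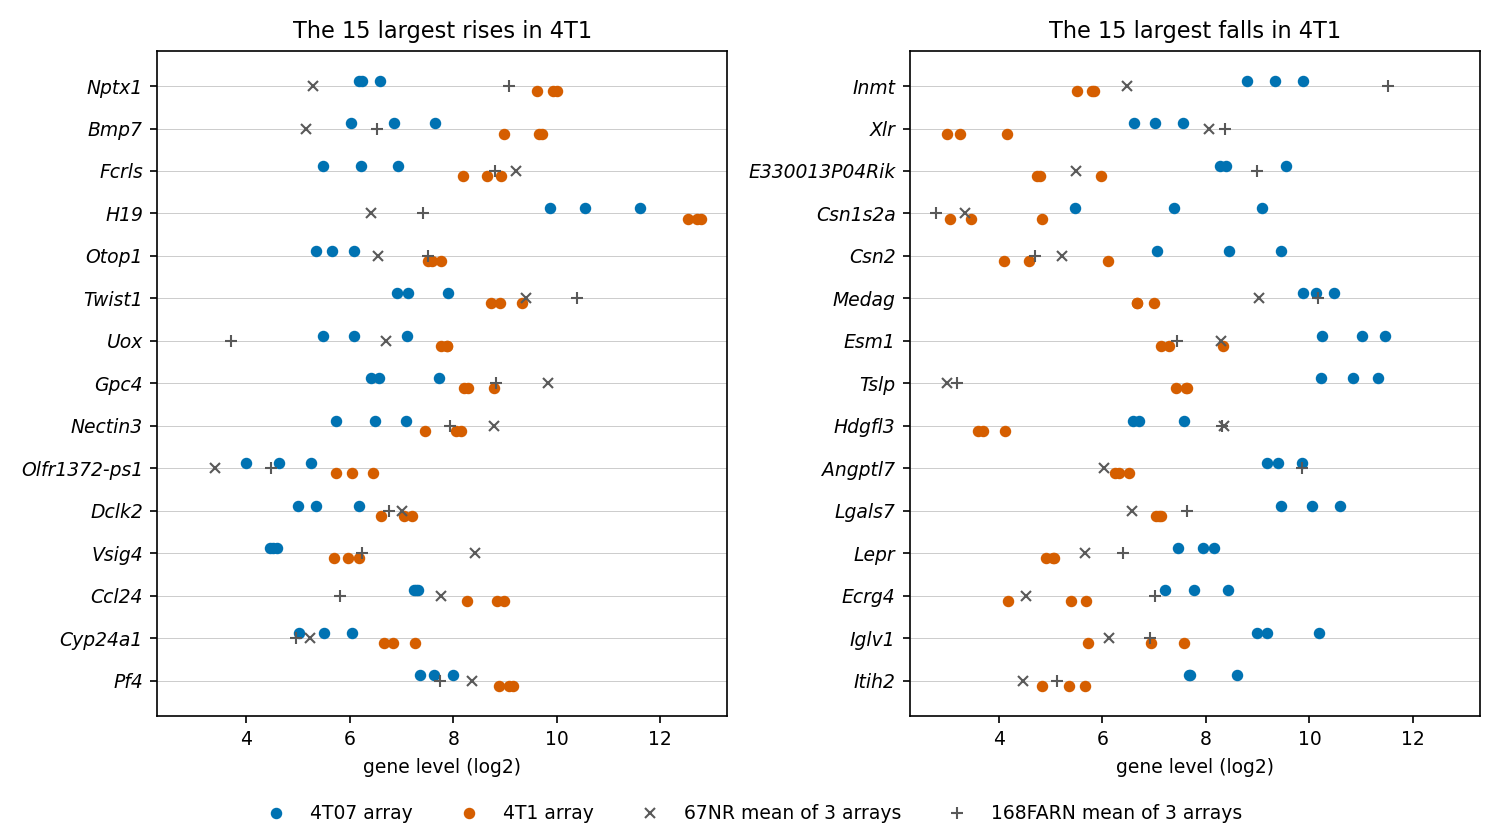
Levels (log2) of the 15 genes with the largest rises (left) and the 15 with the largest falls (right) in 4T1, with 1 point per 4T07 array (blue) and per 4T1 array (orange), and the means of 67NR (x) and 168FARN (+) over 3 arrays. The 30 genes were picked on the condition that the 2 colours do not overlap, and the 67NR and 168FARN means lie on either side.

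Inmt, an N-methyltransferase of indoles, fell by 3.61 on the log2 scale (9.33 ± 0.55 to 5.72 ± 0.18), Angptl7, a secreted protein of the angiopoietin-like family, by 3.11 (9.47 to 6.36), and Lgals7, galectin-7 of stratified epithelia, by 2.94 (10.03 to 7.09). The uncharacterized transcript E330013P04Rik fell by 3.56, the secreted peptide gene Ecrg4 by 2.72 and Itih2, a heavy chain of the inter-alpha-trypsin inhibitors, by 2.71. Xlr, of a multigene family on the X chromosome, fell by 3.59 to 3.47 ± 0.62, in the range of the background, and Hdgfl3, a relative of hepatoma-derived growth factor, by 3.16 to 3.80 ± 0.28. Both were high in 67NR (8.06 and 8.34) and in 168FARN (8.36 and 8.31), so that 4T1 was the lowest of the 4 lines. These calls were steady. Probesets may be shared among the near-identical members of the Xlr family and among immunoglobulin genes, so their values are uncertain.

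Genes of the interferon response were called only lower in 4T1, among them Igtp and other GTPases. Interferons act through STAT transcription factors to raise a large set of genes, among them GTPases of the Irg and Gbp families that attack vacuoles of intracellular pathogens, and enzymes that block viruses. Of 39 measured members of the interferon list, 12 were lower in 4T1, 0 were higher and 27 did not pass the test, against 1.82% of all genes called lower. The median change of the list was -0.69, against -0.000739 over all genes, and in 28 of the 39 all 4T1 arrays lay below all 4T07 arrays, which held for 10.1% of all genes, while in 0 of the 39 they all lay above, which held for 7.87%. Igtp, an Irg GTPase, read 10.33, 10.41 and 10.96 in 4T07 and 8.35, 9.07 and 9.38 in 4T1, a fall of 3.10-fold (log2 -1.63, SE 0.287, adjusted p = 0.00834). Its neighbour on the chromosome, Irgm2, read 11.05, 11.31 and 11.28 in 4T07 and 9.65, 10.21 and 10.14 in 4T1 (log2 -1.21, SE 0.19, adjusted p = 0.00404). On both genes 4T1 array 1 was the lowest of the 6 arrays. The calls of Igtp and Irgm2 were steady.

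Iigp1 fell by 1.52, Gbp5 by 1.33 and Gbp3 by 1.30. Their calls were lost without 4T07 array 2 (adjusted p = 0.0944, 0.0514 and 0.0825), those of Iigp1 and Gbp3 without 4T1 array 1 (0.123 and 0.0875), and that of Iigp1 without 4T07 array 3 (0.0629) or 4T1 array 2 (0.0725). The nucleic acid sensor gene Zbp1 fell by 1.17, Cmpk2 and its neighbour Rsad2, which encodes the antiviral enzyme viperin, by 1.00 and 0.97, Oas2 by 0.86, Ifit2 by 0.84, Parp9 by 0.77 and Gbp6 by 0.73. Of these, Irgm2, Zbp1 and the 6 that follow it were named after their values were seen. Without 4T1 array 1 the calls of Cmpk2 (0.0567), Rsad2 (0.0679) and Parp9 (0.0522) were lost. Zbp1 was lost without 4 of the 6 arrays (up to 0.136), Oas2 without 5 (up to 0.127), and Ifit2 and Gbp6 without each of the 6 (up to 0.147 and 0.225). The count of 12 was 5 without 4T07 array 2, 3 without 4T1 array 1, 8 without 4T07 array 3 or 4T1 array 2, and 9 and 10 without the remaining arrays. The list also held members with values near 0, among them Ifitm3 (0.002), Ifi27 (0.10) and Ifi35 (0.11). Other guanylate-binding genes outside the list, chosen after their values were seen, fell too: Gbp4 by 1.70 and Gbp8 by 1.40, both steadily, and Gbp2b by 1.21, lost without 4T07 array 2 (0.0661) or 4T1 array 1 (0.0813). The mean level of the interferon list was 9.49 ± 0.20 in 4T07 and 8.79 ± 0.21 in 4T1, and its arrays lay between 8.07 and 9.19 in 67NR and 168FARN.

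The promoters of 4 of these genes are shown because the binding motifs of interferon-activated factors lie in them, as RefSeq gives the bases from 250 before to 50 after the start of each gene in the build GRCm38.p6. Capitals mark matches, on either strand, to the core of the interferon-stimulated response element (ISRE), which is GAAA, any 2 bases and GAAA, and to the gamma-activated site (GAS), which is TTC, any 3 bases and GAA. Igtp lies at chr11:58199306-58199605, Irgm2 at chr11:58214727-58215026, Gbp3 at chr3:142559794-142560093 and Gbp5 at chr3:142496684-142496983, all on the plus strand.
Igtp: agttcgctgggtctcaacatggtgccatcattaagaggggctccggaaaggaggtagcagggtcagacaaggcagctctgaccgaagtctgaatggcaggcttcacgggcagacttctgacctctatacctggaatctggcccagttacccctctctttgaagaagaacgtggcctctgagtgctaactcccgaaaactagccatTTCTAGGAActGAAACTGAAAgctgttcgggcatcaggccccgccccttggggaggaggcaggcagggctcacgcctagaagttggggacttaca
Irgm2: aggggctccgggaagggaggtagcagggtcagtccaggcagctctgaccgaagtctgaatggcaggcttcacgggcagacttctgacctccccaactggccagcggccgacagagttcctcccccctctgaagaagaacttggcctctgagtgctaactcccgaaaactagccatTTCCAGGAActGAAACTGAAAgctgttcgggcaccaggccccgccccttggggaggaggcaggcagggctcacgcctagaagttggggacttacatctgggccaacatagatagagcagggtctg
Gbp3: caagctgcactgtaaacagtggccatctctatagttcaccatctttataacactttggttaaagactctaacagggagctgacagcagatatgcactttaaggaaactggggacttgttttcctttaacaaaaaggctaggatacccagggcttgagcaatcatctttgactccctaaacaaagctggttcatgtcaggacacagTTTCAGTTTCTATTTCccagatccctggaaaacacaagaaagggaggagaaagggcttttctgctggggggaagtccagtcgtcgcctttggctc
Gbp5: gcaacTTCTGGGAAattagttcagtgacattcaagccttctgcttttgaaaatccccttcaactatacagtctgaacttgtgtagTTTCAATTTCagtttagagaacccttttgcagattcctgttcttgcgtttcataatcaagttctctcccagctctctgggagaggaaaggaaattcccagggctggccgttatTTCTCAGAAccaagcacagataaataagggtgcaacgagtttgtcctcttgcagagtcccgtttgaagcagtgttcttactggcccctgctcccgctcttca
In Igtp and in Irgm2 the same arrangement recurs, with a GAS match starting 11 bases before an ISRE match of the same letters, GAAACTGAAA. In Gbp3 a pair of ISRE matches overlap on the opposite strand, and Gbp5 holds 1 ISRE match between 2 GAS matches. Over all 12017 tested genes with a promoter in the table, 3.75% held an ISRE match and 8.62% a GAS match. Of the 7 called interferon genes with a promoter, 5 held an ISRE match and 4 a GAS match. Of the 20 interferon genes that did not pass the test, 10 and 5 did, so matches were also common among members without a call. Among all genes lower in 4T1, 5.85% of 205 held an ISRE match and 12.7% a GAS match, and among those higher 3.17% and 7.94% of 63.

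**Figure D3:**
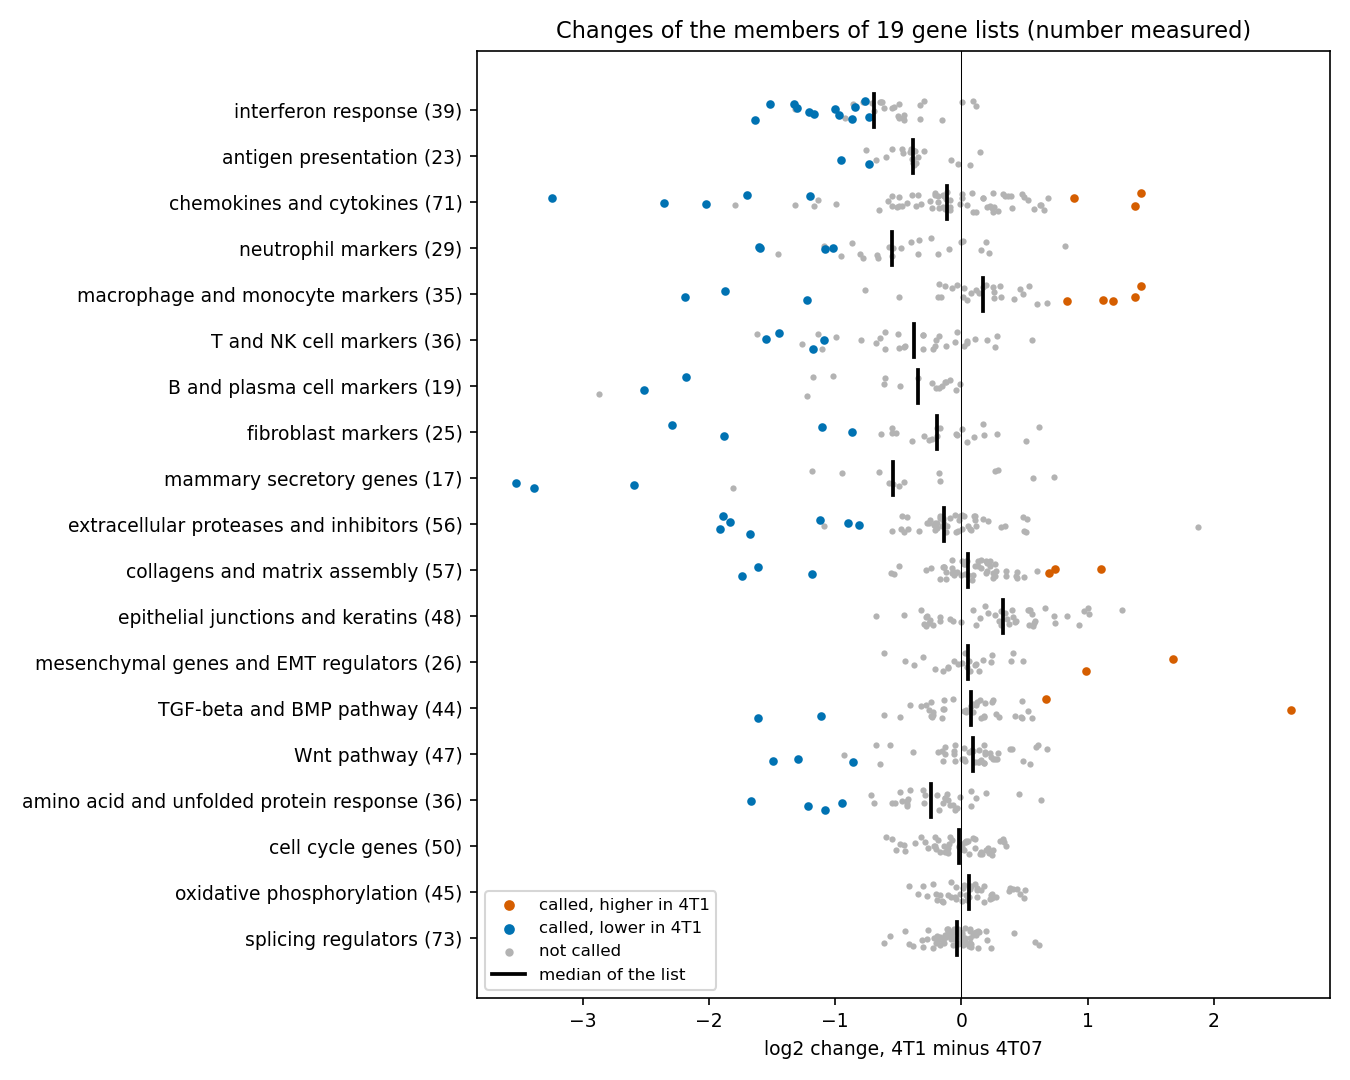
Log2 change from 4T07 to 4T1 of each measured member of 19 gene lists (horizontal), with 1 row per list, its number of members in brackets and a black bar at its median. Orange points are members called higher and blue points members called lower in 4T1; the interferon list has 12 blue points and a median of -0.69, and the bottom 3 lists have no coloured point.

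Genes of antigen presentation had fewer calls than the interferon list, and only lower in 4T1. Of 23 members, Tap1, a subunit of the transporter that loads peptides onto class I molecules, fell by 0.96 (10.91 ± 0.19 to 9.96 ± 0.24) and the class I gene H2-Q7 by 0.73, while 21 members remained short of the threshold. The 2 falls compare with 1.82% of all genes called lower, and the median change of the list was -0.39. Neither call was steady: both were lost without 4T07 array 2 (adjusted p = 0.0595 and 0.114) or 4T1 array 1 (0.0639 and 0.141), and H2-Q7 also without 4T07 arrays 1 (0.0731) and 3 (0.0585) or 4T1 array 2 (0.158). B2m, the common light chain of class I, was measured at -0.08. Outside the lists, and chosen after their values were seen, the neighbouring genes of the ligands of the checkpoint receptor PD-1 were both lower in 4T1. Cd274, which encodes PD-L1, read 9.90, 9.57 and 9.31 in 4T07 and 7.90, 8.65 and 8.26 in 4T1 (log2 -1.32, SE 0.279, adjusted p = 0.0243). Pdcd1lg2, which encodes PD-L2, read 8.60, 9.46 and 8.64 in 4T07 and 7.07, 7.39 and 7.41 in 4T1 (log2 -1.61, SE 0.304, adjusted p = 0.0127). Without 4T07 array 2 or 4T1 array 1 neither was called (Cd274 at 0.0891 and 0.127, Pdcd1lg2 at 0.0692 and 0.069), and Cd274 was also lost without 4T07 array 1 (0.0838) or 4T1 array 3 (0.0804). Casp1, the inflammatory caspase, fell steadily by 1.53 (9.61 ± 0.33 to 8.08 ± 0.14).

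Among 36 markers of T and NK cells, 4 were lower in 4T1 and 0 higher, against 1.82% and 0.552% of all genes, and 32 did not pass the test. The 4 were Klrd1 (-1.55) and its neighbour Klrk1 (-1.09), both receptors of NK and cytotoxic T cells, the granule protein gene Nkg7 (-1.44) and the granzyme gene Gzmk (-1.18). None was called without 4T07 array 2 (adjusted p = 0.167, 0.139, 0.0514 and 0.0937) or without 4T1 array 1 (0.145, 0.17, 0.0753 and 0.077), and the list had 2 calls without 4T1 array 2, 3 without 4T07 array 3 and 5 without 4T07 array 1 or 4T1 array 3. Averaged over its members, the list stood at 6.73, 7.38 and 6.94 on 4T07 arrays 1, 2 and 3 and at 6.53, 6.44 and 6.66 on those of 4T1. The lines did not overlap, and 4T07 array 2 was the highest of the 6. Cd8a, the marker of cytotoxic T cells, changed by -1.62 with an adjusted p of 0.0797. Of the 36 members, 35 stood above the background range in 1 line or both. The part of T and NK cells in the interferon and antigen presentation values was not tested.

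Of 29 neutrophil markers, 4 were lower in 4T1 and 0 higher, against 1.82% and 0.552% of all genes, with a median change of -0.55: the granule genes Ngp (-1.60) and Mpo (-1.08), the chitinase-like gene Chil3 (-1.60) and Slfn4 (-1.02). Ngp read 7.74, 8.23 and 8.08 in 4T07 and 6.48, 6.26 and 6.49 in 4T1. Chil3 lay in the range of the background in 4T1 (3.80 ± 0.09) and on 4T07 array 1 (4.58). Slfn4 was steady, and it was the 1 member left without 4T07 array 2, 4T1 array 1 or 4T1 array 3. In 15 of the 29 all 4T1 arrays lay below those of 4T07, against 10.1% of all genes, and the calgranulins S100a8 (-1.07, adjusted p = 0.227) and S100a9 (-0.95, adjusted p = 0.296) did not pass the test. The mean level of the list was 8.04 ± 0.13 in 4T07 and 7.49 ± 0.14 in 4T1, above 67NR and 168FARN, whose arrays lay between 6.19 and 6.85. Csf3, the granulocyte colony-stimulating factor gene, was at 7.08 ± 0.23 in 4T07 and 7.45 ± 0.17 in 4T1 (adjusted p = 0.493).

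Of 35 macrophage and monocyte markers, 5 were higher and 3 lower in 4T1, against 0.552% and 1.82% of all genes. The rises were those of Vsig4 (log2 1.42), a complement receptor of tissue macrophages, Pf4 (1.38), a chemokine of platelets and macrophages, the fractalkine receptor gene Cx3cr1 (1.20), the folate receptor gene Folr2 (1.12) and the mannose receptor gene Mrc1 (0.84). Vsig4 read 4.46, 4.59 and 4.52 in 4T07, in the range of the background, and 6.18, 5.97 and 5.69 in 4T1, so its rise of 2.68-fold may be understated (SE 0.191, adjusted p = 0.0014). Folr2 read 8.45, 8.53 and 8.45 in 4T07 and 9.79, 9.82 and 9.19 in 4T1 (adjusted p = 0.004). The falls were those of Gpnmb (-2.19), a glycoprotein of lipid-laden macrophages, of Nos2 (-1.87), the inducible nitric oxide synthase, and of the monocyte marker Ly6c2 (-1.22), whose probesets may be shared with other Ly6 genes. Nos2 read 8.74, 8.45 and 8.61 in 4T07 and 6.24, 7.02 and 6.92 in 4T1 (SE 0.22, adjusted p = 0.000596). The calls of Vsig4, Cx3cr1, Folr2, Gpnmb and Nos2 were steady. Pf4 was lost without 4T07 array 2 (0.0503), Mrc1 without that array (0.0891) or 4T1 arrays 1 (0.103) and 3 (0.0683), and Ly6c2 without 5 of the 6 arrays. The mean level of the whole list was 9.10 ± 0.18 in 4T07 and 9.21 ± 0.07 in 4T1, and the arrays of the lines overlapped. Outside the list, Fcrls rose as given above and Fcna, a ficolin gene of macrophages chosen after its value was seen, rose steadily by 1.06, and the part of macrophages in those values was not tested. Pf4 is also a platelet marker. Of 9 platelet and megakaryocyte markers, 2, Pf4 and Ppbp, were higher and 0 lower, against 0.552% and 1.82% of all genes. The mean level of that list was 5.86 ± 0.09 in 4T07 and 6.15 ± 0.06 in 4T1. The part of platelets in the value of Pf4 was not tested.

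Of 19 B and plasma cell markers, 2 were lower in 4T1 and 0 higher, against 1.82% and 0.552% of all genes. The immunoglobulin chain gene Ighg2b fell by 2.51 and Jchain, the joining chain of secreted antibodies, by 2.18. Jchain read 8.93, 9.81 and 8.63 in 4T07 and 7.35, 6.31 and 7.17 in 4T1, and its call was steady, while that of Ighg2b was lost without 4T07 arrays 1 (0.0689) and 2 (0.0893) or 4T1 arrays 1 (0.0698) and 2 (0.0739). The light chain gene Iglv1 fell by 2.71, lost without 4T07 array 2 (0.0891), 4T1 array 1 (0.0522) or 4T1 array 2 (0.0646). Ighg1, at 11.27, 12.56 and 9.26 in 4T07 and 9.94, 5.67 and 8.86 in 4T1, varied too much within each line to pass (adjusted p = 0.172). The list was lowest on 4T1 array 2 (mean level 5.83) and highest on 4T07 array 2 (8.18), and the lines overlapped.

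**Figure D4:**
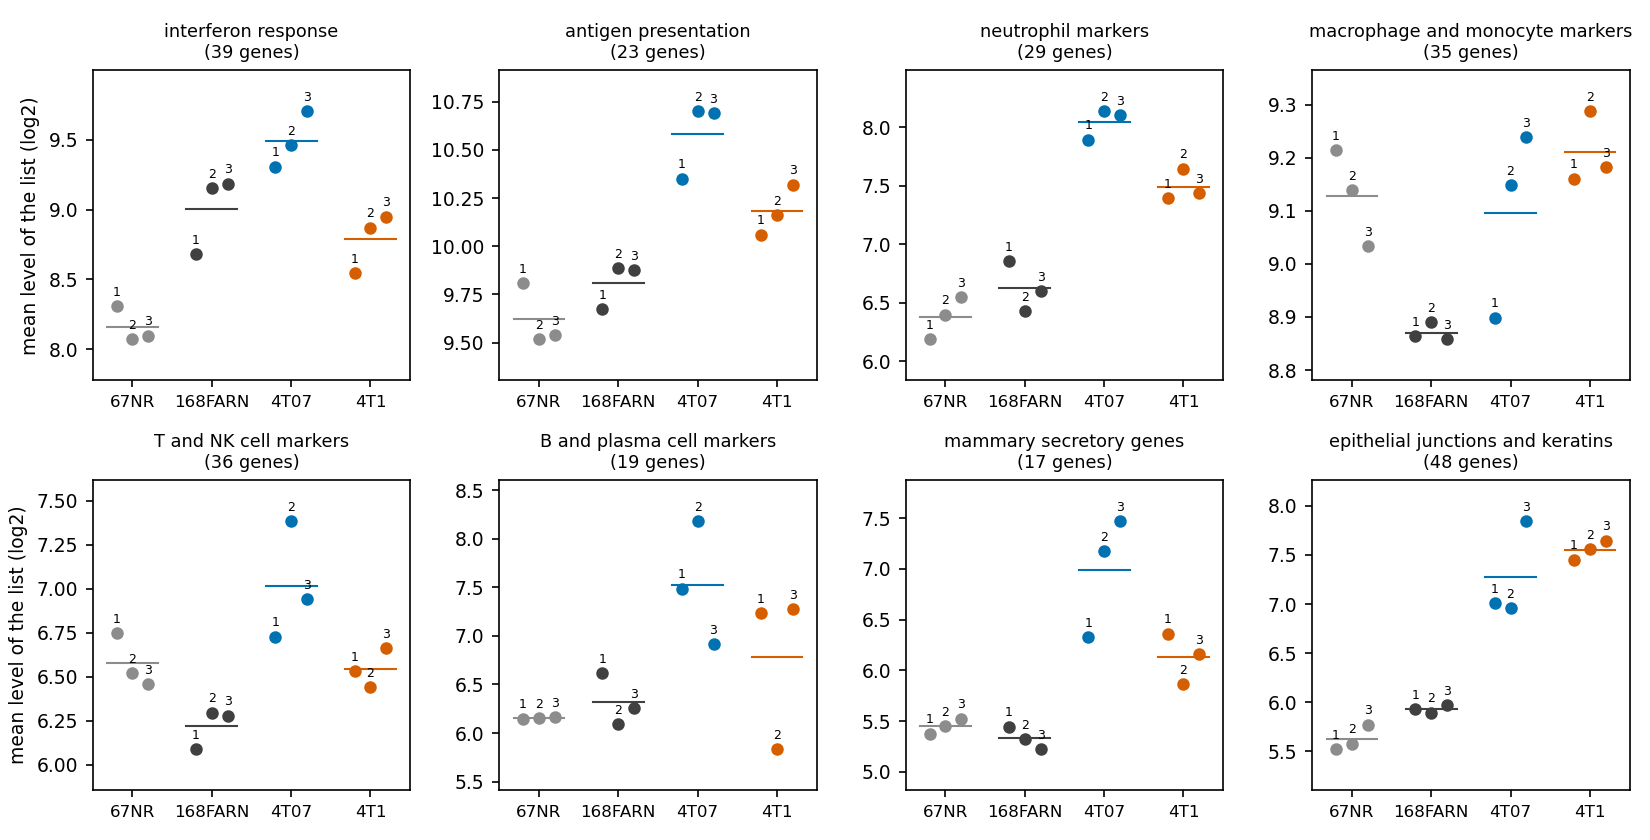
Mean level (log2) of 8 gene lists on each of the 12 arrays, with 1 point per array, its replicate number above it and a bar at the mean of the line; the vertical scale differs between panels. Of the 8 shown, the interferon, antigen presentation, neutrophil and T and NK cell lists separate the 4T07 arrays from those of 4T1. The antigen presentation list does so narrowly (10.35 on 4T07 array 1, 10.32 on 4T1 array 3). Lists not shown separate them too, among them fibroblast and adipocyte markers, lower in 4T1, and platelet and red blood cell markers, higher in 4T1. On the epithelial list 4T07 array 3 (7.84) stands above 4T07 arrays 1 (7.01) and 2 (6.96).

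Chemokines and cytokines were called in both directions. Of 71 members, 5 were lower in 4T1 and 3 higher, against 1.82% and 0.552% of all genes. Besides Tslp, the falls were those of Cxcl5 (-2.36), a neutrophil-attracting chemokine, Il11 (-2.02), a cytokine of the interleukin-6 family, Ccl8 (-1.70) and Tnfsf13b (-1.20), which encodes the B cell survival factor BAFF. Cxcl5 read 9.04, 7.59 and 8.41 in 4T07 and 5.67, 6.04 and 6.26 in 4T1 (SE 0.329, adjusted p = 0.00176). Ppbp (0.89) and Pf4, which lie next to Cxcl5 in the genome, rose, as did Ccl24 (1.42), a chemokine for eosinophils. The neighbours therefore differed in sign. Cxcl5, Il11, Tslp and Ccl24 were steady, Ccl8 was lost without each of the 6 arrays (0.0535 to 0.125), Tnfsf13b without 4T07 array 2 (0.0525) or 4T1 array 1 (0.0522), and Ppbp without 4T07 arrays 1 (0.05) and 2 (0.0864) or 4T1 arrays 1 (0.0773) and 2 (0.076).

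A set of casein genes was lower in 4T1. Caseins are the main proteins of milk, and their genes form a cluster. Of 17 mammary secretory genes, 3 fell, 0 rose and 14 did not pass the test, against 1.82% of all genes called lower and 0.552% higher. The 3 that fell were caseins: Csn1s2a by 3.53, Csn2 by 3.39 and Csn3 by 2.59. Csn2 read 7.06, 8.44 and 9.44 in 4T07 and 6.10, 4.09 and 4.58 in 4T1 (SE 0.53, adjusted p = 0.004), and Csn1s2a read 5.47, 7.38 and 9.08 in 4T07 and 4.83, 3.46 and 3.05 in 4T1. The 4T1 values lie mostly in the range of the background, and 4T07 array 1 was the lowest of its line for all 3 genes. With only genes above the background range tested, the count was 1. Csn2 and Csn3 were steady, and Csn1s2a was lost without 4T07 array 2 (0.0783) or 4T1 arrays 2 (0.0698) and 3 (0.0813). Csn1s1, at 3.99, 7.35 and 8.27 in 4T07 and 5.02, 4.89 and 4.29 in 4T1, overlapped between the lines. Adipocyte markers, which the fat pad also contributes, had 1 fall of 24, against 1.82% of all genes. It was that of the fatty acid binding protein gene Fabp4 (-1.29), lost without 4T07 array 2 (0.0937), 4T1 array 1 (0.109) or 4T1 array 2 (0.0589). The mean level of the mammary secretory list was 6.99 ± 0.59 in 4T07 and 6.13 ± 0.25 in 4T1, and that of the adipocyte list 7.46 ± 0.31 and 7.09 ± 0.05. The part of normal mammary gland and fat in the casein values was not tested.

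Genes of the stroma and its proteins were called in both directions. Of 25 fibroblast markers, 4 fell and 0 rose, against 1.82% and 0.552% of all genes. The 4 were the ferritin receptor gene Scara5 (-2.29), the proteoglycan genes Ogn (-1.88) and Dcn (-1.11), and the PDGF receptor gene Pdgfra (-0.87). Scara5, Ogn and Dcn were steady, and Pdgfra was lost without 4T07 array 2 (0.0806), 4T1 array 1 (0.0792) or 4T1 array 3 (0.056). Of 57 genes of collagens and matrix assembly, 3 fell and 3 rose, against 1.82% and 0.552% of all genes. Ccn2, the matricellular connective tissue growth factor, read 11.42, 11.72 and 11.18 in 4T07 and 9.43, 9.83 and 10.21 in 4T1 (log2 -1.61, SE 0.218, adjusted p = 0.00142), and its relative Ccn3 fell by 1.74 and the fibulin gene Efemp1 by 1.19, all steadily. The lysyl oxidase gene Loxl4 rose steadily by 1.10, Ccn5 by 0.74 and the collagen gene Col18a1 by 0.69. The last pair was lost without 4T07 array 2 (0.113 and 0.124) or 4T1 arrays 1 (0.0564 and 0.135) and 2 (0.125 and 0.123), among others.

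Of 56 extracellular proteases and inhibitors, 7 fell and 0 rose, against 1.82% and 0.552% of all genes. Inhibitors led the falls: Slpi, the secretory leukocyte protease inhibitor, read 11.60, 11.80 and 11.28 in 4T07 and 9.84, 9.62 and 9.49 in 4T1, a fall of 3.77-fold (SE 0.258, adjusted p = 0.00142). Timp3, an inhibitor of metalloproteinases that binds the matrix, read 10.38, 10.70 and 10.14 in 4T07 and 8.24, 8.68 and 8.63 in 4T1, a fall of 3.70-fold (SE 0.255, adjusted p = 0.00143). Tfpi, the inhibitor of the tissue factor pathway of clotting, fell by 1.84. The metalloproteinase gene Mmp28 fell by 1.67, heparanase, Hpse, by 1.12, the serine protease gene Htra1 by 0.90 and Adamts1 by 0.81. Hpse was lost without 4T07 arrays 1 (0.0516) and 2 (0.156) or 4T1 arrays 1 (0.156) and 3 (0.0722) and Adamts1 without 4T07 array 2 (0.0659) or 4T1 array 1 (0.0719), and the other 5 were steady.

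Epithelial junctions and keratins were not called between the lines. Of 48 members 0 passed the test in limma in either direction, against 2.38% of all genes, a share at which few calls would be found among 48. At an unadjusted p under 0.05, 8 were higher and 3 lower. The median change was 0.33 and 33 members were above 0, and without 4T07 array 3 the count of calls was 13 higher. On average its members stood at 7.01, 6.96 and 7.84 on 4T07 arrays 1, 2 and 3 and at 7.45, 7.56 and 7.64 on those of 4T1, against 5.52 to 5.97 on those of 67NR and 168FARN. Cdh1, which encodes E-cadherin, read 8.39, 8.20 and 9.32 in 4T07 and 8.51, 8.84 and 9.11 in 4T1 (log2 0.18, adjusted p = 0.835). The splicing regulator of epithelia, Esrp1, read 7.68, 6.84 and 9.55 in 4T07 and 7.65, 8.09 and 7.82 in 4T1 (log2 -0.17, adjusted p = 0.935). In both genes 4T07 array 3 was the highest of the 6. Of 26 mesenchymal genes and regulators of the transition, Twist1 and the calcium-binding protein gene S100a4 rose and 0 fell, against 0.552% and 1.82% of all genes. S100a4 read 8.86, 8.34 and 8.61 in 4T07 and 9.72, 9.59 and 9.44 in 4T1 (log2 0.98, SE 0.17, adjusted p = 0.00754), lost without 4T1 array 1 (0.0512), and it was higher in 67NR (12.00) and 168FARN (11.08). The intermediate filament gene Vim (13.32 ± 0.05 and 13.39 ± 0.02), fibronectin, Fn1 (13.45 ± 0.09 and 13.39 ± 0.09), and the hyaluronan receptor gene Cd44 (9.39 ± 0.53 and 9.53 ± 0.06) did not pass the test, nor did Hprt, a purine salvage gene whose loss gives resistance to thioguanine (9.94 ± 0.40 and 9.59 ± 0.10, adjusted p = 0.483).

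Calls in signalling pathways stand beside 1.82% of all genes called lower and 0.552% called higher. Of 44 genes of the TGF-beta and BMP pathway, Bmp7 and the coreceptor gene Tgfbr3 (0.67) rose, and Ccn2 and Fst (-1.11), which encodes follistatin, a secreted inhibitor of activins and BMPs, fell. Outside the list, and chosen after its value was seen, the BMP ligand gene Bmp5 fell steadily by 1.79 to 3.86 ± 0.14, in the background range, so ligands of the family were called in both directions. The call of Fst was lost without each of the 6 arrays (0.058 to 0.136) and that of Tgfbr3 without 4T07 arrays 1 (0.0799) and 2 (0.117) or 4T1 arrays 1 (0.0879) and 2 (0.154). Of 47 Wnt pathway genes, 3 fell: Notum (-1.49), an enzyme that inactivates Wnt ligands, the receptor gene Ror1 (-1.29) and Wnt6 (-0.86). Ror1 was steady, Notum was lost without 4T07 array 2 (0.0705), 4T1 array 1 (0.0651) or 4T1 array 3 (0.0808), and Wnt6, at a low level, without 5 of the 6 arrays and with its sign turned when dim probesets were left out (0.10). Of 49 genes on the list of EGF and FGF receptors, ligands and feedback, 3 fell. They were Igfbp6 (-1.80), which encodes a binding protein of insulin-like growth factors, Fgf7 (-1.77) and Errfi1 (-0.91), an inhibitor of the EGF receptor. Igfbp6 was steady, Fgf7 was lost without 5 of the 6 arrays, and Errfi1 without 4T1 array 1 (0.0648). The receptor gene Fgfr2 was at 9.85 ± 0.19 and 10.04 ± 0.09 (adjusted p = 0.787).

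Of 37 genes known from lung and bone metastasis in other breast cancer models, 2 were higher and 3 lower in 4T1. Over all genes these shares were 0.552% and 1.82%. Those higher were Twist1 and Pthlh, which encodes the parathyroid hormone-related protein that drives bone resorption. Pthlh read 7.77, 8.38 and 8.02 in 4T07 and 9.20, 9.06 and 9.18 in 4T1 (log2 1.09, SE 0.239, adjusted p = 0.0296), and its call was lost without 5 of the 6 arrays (0.0602 to 0.122). Those lower were Il11, Ccn2 and Adamts1, 3 genes known from models of bone metastasis. Of 48 axon guidance genes, 4 fell, against 1.82% of all genes. All 4 were semaphorins: Sema3b (-1.33), Sema6a (-1.31), Sema7a (-1.28) and Sema3c (-1.19). The semaphorins on the list were not counted, and over all 48 genes the median change was 0.03, with 25 above 0. Sema3c ended at 4.84 ± 0.32 in 4T1, in the range of the background. Sema6a was steady, Sema3b was lost without 4T07 array 2 (0.0536), 4T1 array 1 (0.0522) or 4T1 array 3 (0.0575), and Sema7a and Sema3c without 4 arrays each, up to 0.217 and 0.135. Of 36 genes of the amino acid and unfolded protein response, 4 fell, against 1.82% of all genes. They were the glycine transporter gene Slc6a9 (-1.66), Aldh1l2 (-1.22) of mitochondrial folate metabolism, Nupr1 (-1.08) and the pseudokinase gene Trib3 (-0.94). All but Trib3, lost without 4T1 array 1 (0.0522), were steady. Klf4, a transcription factor of epithelial and stem cells, fell steadily by 1.43, and Hoxa5, of the homeobox family, rose by 1.25, lost without 5 of the 6 arrays (0.112 to 0.192).

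A few calls each came from other lists, beside 1.82% of all genes called lower and 0.552% called higher. Of 42 antioxidant genes, the metallothionein gene Mt2 fell by 1.32 and Sod3, the extracellular superoxide dismutase, by 1.12. Of 25 immediate early and stress genes, Klf4 and the heat shock gene Hsph1 (-1.06) fell. Of 55 integrin and adhesion genes, 3 rose, among them Nectin3 and the integrin gene Itga7 (0.81), and 2 fell, Itgb7 (-1.33) and Cadm1 (-0.93). The endothelial coreceptor gene Eng rose by 0.76, Mustn1, a gene of muscle and cartilage, fell by 2.09, the neuronal enolase gene Eno2 by 1.29, the kallikrein gene Klk8 by 0.86 and Sqle, of cholesterol synthesis, by 0.86. Klf4, Mt2 and Mustn1 were steady, and the calls of the others were lost without 1 to 5 of the 6 arrays.

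Of the 40 lists, 10 had 0 calls in either direction in limma, where 2.38% of all genes were called. At that share a list of such a size would hold few calls, so 0 says little about its members. Among them were 50 cell cycle genes (median change -0.02), 45 genes of oxidative phosphorylation (0.06), 23 genes of the Notch pathway (0.11) and 73 splicing regulators (-0.03). At an unadjusted p under 0.05, 0 cell cycle genes were higher and 5 lower, 4 genes of oxidative phosphorylation higher and 0 lower, 4 of the Notch pathway higher and 3 lower, and 3 splicing regulators higher and 4 lower. Without 4T07 array 3, 2 genes of the Notch pathway and 2 splicing regulators were called higher. Over all 15025 genes, 1986 had an unadjusted p under 0.05.

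The probesets of a gene were then compared with each other, since a probeset that changes apart from the rest of its gene can mark an alternative exon, promoter or transcript end, or can be a probeset that responds poorly or binds other transcripts. Binding to other transcripts was not tested. In 110320 probesets of 7349 genes, limma's diffSplice called 164 (0.149%) in 142 genes, where a call needed an adjusted p under 0.05 and, on the log2 scale, a change relative to the gene of 1 or more. Of these 62 rose and 102 fell relative to their gene, and in 128 the relative levels of the lines did not overlap, which held for 12.2% of all probesets. Of the rises, 41 lay in genes lower in 4T1, 21 in genes not called and 0 in genes higher in 4T1, and of the falls, 88 lay in genes not called. A splicing index, tested with its own spread for each probeset, called 9 (0.00816%), of which 8 were among the 164. diffSplice uses 1 spread per gene, so a noisy probeset in a quiet gene can pass it. On simulated arrays that kept the spread of each probeset but held few true changes, it called more unchanged probesets than it called here. Its calls alone therefore carry little weight, and the 8 called by both, chosen for that after their values were seen, are given first. With 4T07 array 1 left out diffSplice called 424. The exon behind each probeset was not analysed here.

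Cask, a scaffold kinase of cell junctions and synapses, fell at 30 of its 32 probesets by at least 1, and its gene level dropped by 1.40. Probeset 5577113 did not follow, at 8.57, 8.34 and 8.09 in 4T07 and 8.70, 8.47 and 8.59 in 4T1, a relative rise of 1.62 (SE 0.224, adjusted p = 2.26e-07, and 0.0386 by the splicing index). Masp1, a serine protease of the complement lectin pathway, fell by 1.16, while its probeset 5571105 read 8.38, 8.26 and 8.01 in 4T07 and 8.62, 8.59 and 8.84 in 4T1 (relative rise 1.66, adjusted p = 5.27e-05, and 0.0375 by the splicing index). Mmp28 had 2 such probesets of 13, with 5512831 at 8.01, 7.98 and 6.98 in 4T07 and 7.98, 7.88 and 8.42 in 4T1, and 4581277 at 7.78, 7.86 and 7.43 against 7.45, 7.71 and 7.86, whereas the probeset that fell most changed by -2.82. Single probesets of Klf4 (4894339, relative rise 1.40), Plpp3 (4435120, 1.40) and Medag (5363270, 1.60) also stayed above their genes. Sorbs3, which encodes the adhesion protein vinexin, had the 1 fall among the 8: probeset 4486168 read 8.91, 9.85 and 8.94 in 4T07 and 6.52, 6.55 and 6.23 in 4T1, a change of -2.80 against -1.10 for the gene (adjusted p = 4.01e-05, and 0.0286 by the splicing index). In diffSplice the calls of 4581277 and 4435120 were lost without single arrays (4581277 without 4T07 array 2, 0.056, or 4T1 array 3, 0.125, and 4435120 without 4T07 array 3, 0.0602), and the other 6 were kept without each array in turn.

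**Figure D5:**
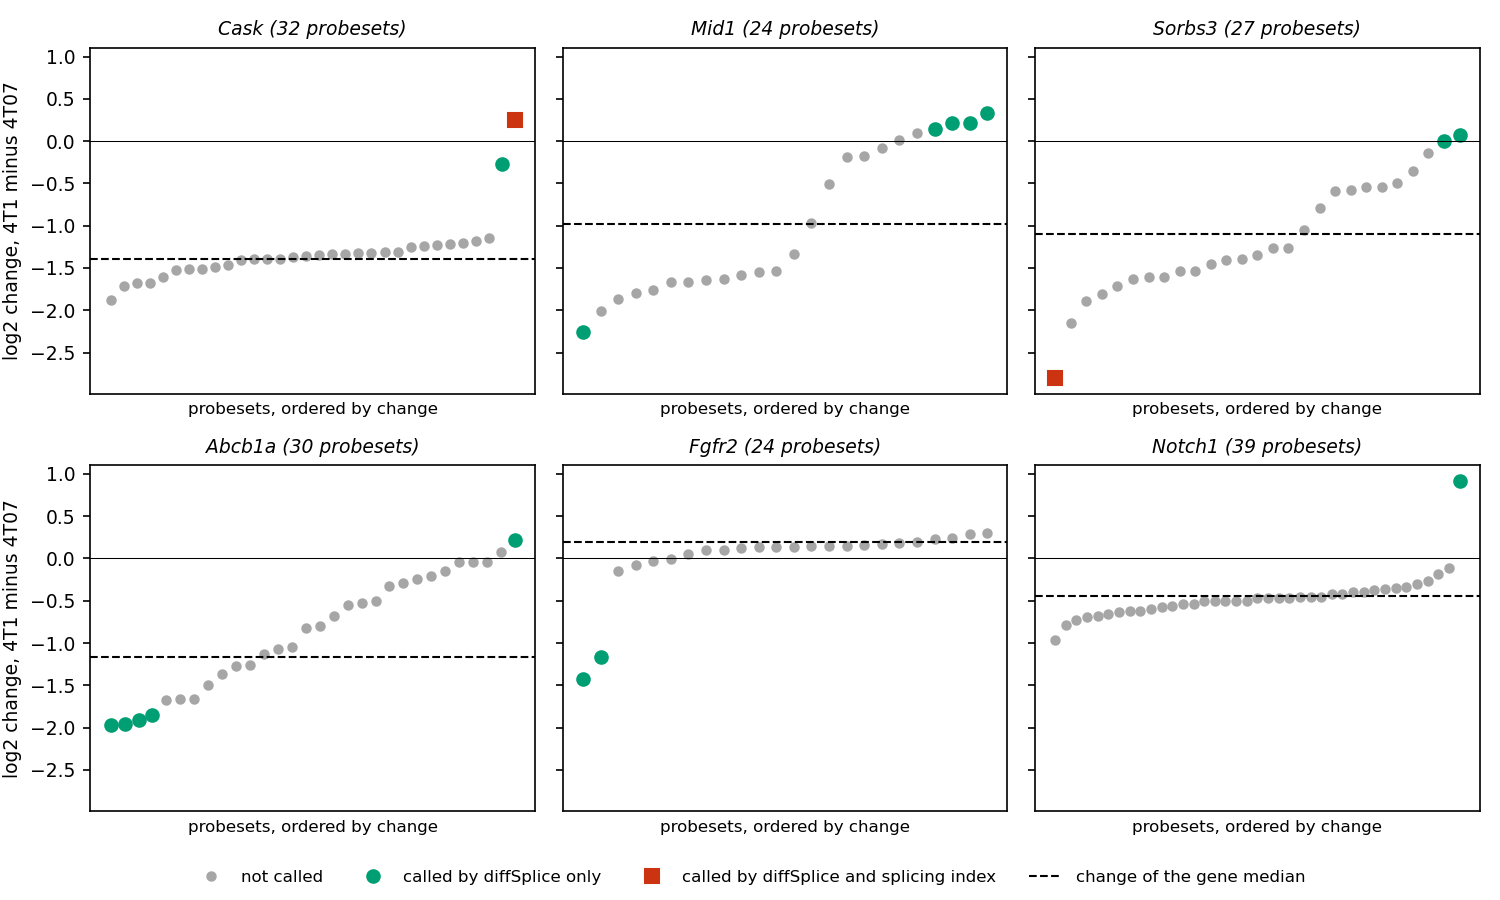
Log2 change from 4T07 to 4T1 (vertical) of every tested probeset of 6 genes, ordered by change within each gene (horizontal, no unit), with the change of the gene median as a dashed line. Green points were called by diffSplice alone and red squares by the splicing index too; 30 of 32 probesets of Cask lie below -1 while 1 red square lies at 0.25, and in Fgfr2 22 of 24 lie within 0.5 of 0.

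Other genes split into groups of probesets by diffSplice alone. Of 24 probesets of Mid1, a ubiquitin ligase of microtubules, 13 fell by at least 1 (median -1.66) and 9 lay within 0.5 of 0 (median 0.10), and 5 were called. Of 30 probesets of Abcb1a, a drug efflux pump, 14 fell by at least 1 (median -1.58) and 11 lay within 0.5 of 0 (median -0.15); its close relative Abcb1b may share them. Dnm1, which encodes dynamin 1, had 21 of 32 below -1 and 6 within 0.5, and Sorbs3 17 of 27 and 4. The 9 calls of the splicing index held no probeset of Mid1, Abcb1a or Dnm1. These genes were chosen after their values were seen.

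The 10 largest relative changes by diffSplice, counting 1 probeset per gene, lay in Nptx1, Zdhhc6, Twist1, Mmp28, Cidec, Pcdh7, Rps6ka3, Nbr1, Slc6a2 and Klf4. In Nptx1, probeset 5190004 was high on all 6 arrays (12.28, 11.67 and 11.01 in 4T07 and 11.93, 11.69 and 11.54 in 4T1) while the gene rose by 3.51. In Twist1, probeset 5542782 read 6.58, 7.24 and 6.96 in 4T07 and 5.82, 6.45 and 6.93 in 4T1 against a gene rise of 1.68. The falls of Zdhhc6 (-2.55), Cidec (-2.21), Rps6ka3 (-1.91) and Nbr1 (-1.90) came from probesets that spread widely within a line: that of Zdhhc6 read 2.10, 6.03 and 4.28 in 4T1, and that of Rps6ka3 6.06, 7.03 and 8.95 in 4T07, overlapping with 4T1. The call of Rps6ka3 was lost without 4T07 array 3 (0.0627) or 4T1 array 2 (0.704), and that of Cidec without any array but 4T1 array 2. The adjusted p of the splicing index for these 4 lay between 0.593 and 0.795.

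Of 85 genes whose exons are known to switch in epithelial-mesenchymal transition or in tumours, 74 entered the exon test. Of these, Cask, Fgfr2 and Vegfa (4.05%) held a called probeset, against 1.93% of all genes in that test. Fgfr2, whose mutually exclusive exons distinguish epithelial from mesenchymal receptors, had 22 of 24 probesets within 0.5 of 0 and 2 below. Probeset 5177161 read 3.68, 4.35 and 4.62 in 4T07 and 2.54, 3.06 and 2.77 in 4T1, in the range of the background (relative change -1.49, adjusted p = 0.000852), and 4338696 read 6.11, 6.75 and 6.85 against 5.16, 5.61 and 5.45 (-1.22, adjusted p = 0.0167). The splicing index gave 0.196 and 0.593 for them, and the call of 4338696 was lost without 5 of the 6 arrays. The called probeset of the growth factor gene Vegfa, 5308703, overlapped between the lines (5.58, 6.77 and 7.46 against 4.25, 5.89 and 5.12), and its call was lost without 4 of the 6 arrays. Outside that list, Notch1 had 1 called probeset of 39, 5046350, at 7.62, 8.52 and 7.78 in 4T07 and 8.99, 8.99 and 8.69 in 4T1, higher by 0.92 while the gene median changed by -0.44 (relative change 1.41, adjusted p = 3.32e-06, and 0.592 by the splicing index).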

How the data were processed

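The values were the authors' deposited array table, 1 column for each of 12 tumour samples and 228090 exon probesets. They were read as log2 signals from their range, since the scale and normalization are not given in the sources used here, and all 12 columns were used as deposited. Of the probesets, 207232 had 1 gene symbol in the platform annotation, 3882 several and 16976 none, and only the first kind was used. The members and gene lists were chosen with earlier results of these data known.

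Gene levels were medians over at least 3 probesets. limma 3.58.1 in R 4.3.3 was fitted over all 12 arrays, and each adjusted p comes from that fit with Benjamini-Hochberg adjustment over 15025 genes. diffSplice and a splicing index used probesets above the 25th percentile in genes of at least 4 such probesets and above the median level. On simulated arrays with each probeset's own spread, diffSplice called more unchanged probesets than it called in the data, and the index called none of them. Genes were named as the 15 largest rises and falls of at least 2-fold without overlap, up to 4 called members and 2 others per list, 8 fixed genes, the 10 largest probeset changes and called probesets of the exon list. Further called members and the genes said to be chosen after their values were seen go beyond it. Alternatives were 2 scalings, the 6 arrays alone, a replicate block, other probeset and gene filters, the mean over probesets, a variance trend, array weights and leaving out each array. The number of arrays limits the precision.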

Additional observations from a re-analysis of the deposited data

How the results depend on the processing

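Against 357 genes called in all, array weights called 731, and leaving out 1 array gave 156 to 531. Against 83 called higher in 4T1, quantile normalization and median centring each gave 169, the 6 arrays alone 52, the mean over probesets 130, a variance trend 126, array weights 210 and leaving out 1 array 23 to 266. Against 274 called lower, array weights gave 521 and leaving out 1 array 131 to 306. Among changes of at least 2-fold, 39 were higher, with 73 under array weights and 17 to 120 without 1 array, and 190 were lower, with 116 to 209 without 1 array. The 164 probesets became 9 by the splicing index, 51 with probesets above the 50th percentile and 115 to 424 without 1 array. The sign turned for Fgfr2 with the mean over probesets (-0.01983), for Esrp1 (0.1361) and Wnt6 (0.1043) with dim probesets left out and for Esrp1 with array weights (0.2127). Leaving out 1 array gave -0.03463 to 0.5271 for Cdh1, -0.03576 to 0.4386 for Cd44, -0.7621 to 0.5907 for Esrp1 and -1.849 to 0.2523 for probeset 5339528. None of these 5 genes but Wnt6 was called. The cause was not tested. Of 97 named genes with a call, 49 were called under all 16 other settings. The scalings shifted the median of all genes by at most 0.0458. Arrays of the same number did not deviate together (correlations -0.01774, 0.04627 and -0.03734), so the numbers were not taken as pairs, and a replicate block gave 349 calls, of which 314 were among the 357.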
